A study of Mus musculus with 18 samples.

Results

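Regulators of G protein signalling (RGS) form a gene family, and 10 of its members were followed here through 3 sorted cell populations of the mouse trachea: Rgs1, Rgs2, Rgs6, Rgs7, Rgs11, Rgs13, Rgs16, Rgs18, Rgs21 and Rgs22. They are 10 of the 22 RGS genes among the 26327 gene symbols of the deposited count table. The 10 were chosen with their levels in these libraries known, to set genes rich in brush cells beside genes rich in leukocytes, so their levels and fold changes are given as a description, without p-values. All 10 had enough counts for the model fitted across genes, although Rgs21, Rgs18, Rgs7 and Rgs6 had few or no counts outside the population that held them.

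The study examined RNA from 7 libraries of brush cells, 7 libraries of tracheal epithelial cells and 4 libraries of CD45+ hematopoietic cells. Brush cells, also called tuft cells, are chemosensory cells of the airway lining; they were sorted as CD45-, EpCAM+ and eGFP+. The epithelial cells (EpCAM libraries) were CD45- and EpCAM+, a gate that as worded does not leave out eGFP+ brush cells, and the hematopoietic cells (CD45 libraries) were CD45+. Every library came from naïve mice of 1 B6 congenic strain that carries Tg(RP23-268L19-EGFP)2Mik, a bacterial artificial chromosome with eGFP under control of choline acetyltransferase (ChAT), so all 3 groups share the transgene. The labels give no age. They do not tie a library to an animal, so a p-value here reflects spread among libraries alone, which may be technical.

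RGS proteins act on the alpha subunits of heterotrimeric G proteins. They speed up the hydrolysis of GTP by the subunit and so shorten the signal that a G protein-coupled receptor starts. Small RGS proteins such as those of Rgs1, Rgs2, Rgs13, Rgs16, Rgs18 and Rgs21 hold little more than the RGS domain, with Rgs2 known for acting on the Gq class. The proteins of Rgs6, Rgs7 and Rgs11 belong to the R7 subfamily, which carries a further domain that binds the beta subunit Gnb5. Rgs21 is known from taste cells of rodents. In leukocytes Rgs1 and Rgs13 are known from B cells, Rgs13 also from mast cells, and Rgs18 is known from platelets.

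The promoters of 4 members are shown because 3 of them lie in 1 cluster of RGS genes on chromosome 1 and the fourth in a second cluster of that chromosome, while their levels differ widely. Each line is the 250 bases before the annotated start, read 5′ to 3′ on the strand of the gene, from RefSeq on GRCm38.p6. They lie at chr1:144177373-144177622 for Rgs13, chr1:144004150-144004399 for Rgs2 and chr1:144567668-144567917 for Rgs21, all on the minus strand, and at chr1:153740103-153740352 on the plus strand for Rgs16. Capitals mark the octamer ATGCAAAT, the recognition sequence of POU factors.
Rgs13: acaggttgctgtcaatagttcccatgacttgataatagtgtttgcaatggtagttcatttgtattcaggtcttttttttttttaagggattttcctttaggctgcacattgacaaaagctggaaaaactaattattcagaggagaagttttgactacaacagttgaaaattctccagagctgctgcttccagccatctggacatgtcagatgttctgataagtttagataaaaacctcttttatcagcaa
Rgs2: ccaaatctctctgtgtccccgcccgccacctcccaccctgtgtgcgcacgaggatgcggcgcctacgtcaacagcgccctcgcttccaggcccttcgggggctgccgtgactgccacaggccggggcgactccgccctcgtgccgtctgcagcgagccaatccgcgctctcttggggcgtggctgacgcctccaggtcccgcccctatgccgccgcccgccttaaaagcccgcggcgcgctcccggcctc
Rgs21: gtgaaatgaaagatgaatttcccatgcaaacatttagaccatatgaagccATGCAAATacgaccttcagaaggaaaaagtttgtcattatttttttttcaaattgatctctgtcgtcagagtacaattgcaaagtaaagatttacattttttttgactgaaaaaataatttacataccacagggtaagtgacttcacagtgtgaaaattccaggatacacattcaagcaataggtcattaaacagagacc
Rgs16: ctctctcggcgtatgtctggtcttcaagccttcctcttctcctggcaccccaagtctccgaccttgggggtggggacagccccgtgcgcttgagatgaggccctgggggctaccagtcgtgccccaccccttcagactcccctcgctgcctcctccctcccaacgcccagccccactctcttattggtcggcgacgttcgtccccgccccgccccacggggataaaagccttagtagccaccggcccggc

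The promoter table held 6 of the 10 members (Rgs2, Rgs6, Rgs7, Rgs13, Rgs16 and Rgs21), as windows of 250 bases before and 50 bases after the start. Their G and C content separated them: 33.3% in Rgs21 and 36.7% in Rgs13, against 58.7% in Rgs6, 66.0% in Rgs16, 70.0% in Rgs2 and 73.3% in Rgs7. The median over 32851 promoters was 52.7%, and 2.61% of them were at or below the value of Rgs21 and 5.78% at or below that of Rgs13. On either strand, ATGCAAAT was found in 1 of the 6, that of Rgs21 at -200, and in 1.74% of all promoters. Among the other RGS genes Rgs4 also held it, at -157 on the opposite strand, and had 0 to 0.476 CPM in brush libraries. Motifs were matched as exact letters, with variants not counted. The TATA box TATAAA was in 0 of the 6 and in 13.6% of all promoters. The cyclic AMP response element TGACGTCA was in 0 and in 1.79%, and the PU.1 site GAGGAAGT in 0 and in 3.2%. In the 100 bases next to the start none of the 6 held any of these, where 0.645% of all promoters held the octamer.

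The libraries held 838328 to 6031711 counts in brush cells, 2442601 to 6087184 in EpCAM cells and 371652 to 7438791 in CD45 cells. In each group 1 library was treated as standing apart from the others: brush replicate 4, EpCAM 5 and CD45 1. Brush 4 and CD45 1 had a low total of counts (838328 and 371652) and the highest share of ribosomal RNA of their groups. EpCAM 5 had a total within the range of its group (3886753) and the lowest share of ribosomal RNA, 12.2%, with EpCAM 4 next at 17%. The 7 brush markers summed to 8648 to 10211 CPM (the count per 1e6 of the TMM-scaled library size) in brush libraries, 8.07 to 33.7 CPM in EpCAM libraries and 0 to 57.8 CPM in CD45 libraries. The 6 pan-leukocyte markers summed to 79.2 to 222 CPM in brush libraries, 8.76 to 41 CPM in EpCAM libraries and 5939 to 6714 CPM in CD45 libraries. Markers of other epithelial cells were present in all 3 groups. The 4 club cell markers summed to 208 to 2979 CPM in brush, 23853 to 128940 in EpCAM and 238 to 1301 in CD45 libraries. The 5 ciliated cell markers summed to 73.8 to 251, 331 to 1398 and 161 to 597 CPM in that order, EpCAM and CD45 libraries overlapping. Fewer cells of a type and less RNA per cell cannot be told apart in such bulk samples.

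By mean CPM, 8 of the 10 members were highest in brush cells, 2 (Rgs1 and Rgs18) in CD45 cells and 0 in EpCAM cells, with the same split by TPM. Brush cells were higher than EpCAM cells in 8 of the 10 and lower in 0, at an adjusted p below 0.05 in edgeR's quasi-likelihood test, where 18.3% of the 13418 genes tested were called higher and 22% lower. Brush cells were higher than CD45 cells in 8 and lower in 2, where 23.4% of genes were called higher and 22.4% lower. EpCAM cells were higher than CD45 cells in 2 and lower in 4, where 22.5% of genes were called higher and 18.1% lower. Since the members were chosen on these values, the counts describe the choice. The comparisons of brush cells with EpCAM and with CD45 cells share the brush libraries.

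**Figure D1:**
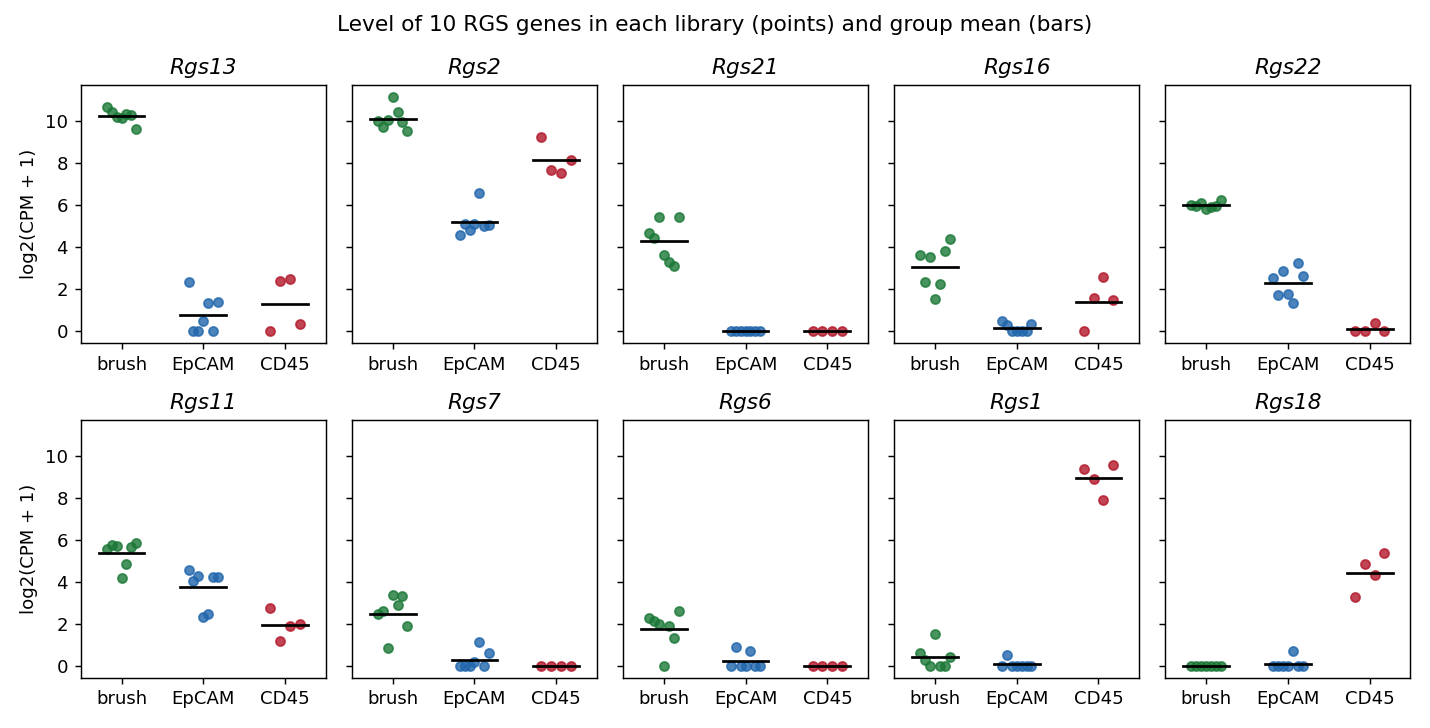
Level of each of the 10 genes, as log2(CPM + 1), in 7 brush, 7 EpCAM and 4 CD45 libraries; points are libraries and bars the mean of the plotted values. Rgs13 and Rgs2 are the highest genes in brush cells, and Rgs1 and Rgs18 are high in CD45 cells alone.

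Rgs13, a small RGS protein, was the member with the highest mean in brush cells. It had 801 CPM in the lowest, 1249 in the median and 1670 in the highest brush library, against 0, 0.404 and 4.01 CPM in EpCAM libraries and 0, 4.24, 4.6 and 0.254 CPM in the 4 CD45 libraries. Every brush library lay far above every other library. The log2 fold change was 10.37 ± 0.82 against EpCAM cells and 8.75 ± 0.99 against CD45 cells (SE), from 36015 counts in brush cells, 24 in EpCAM cells and 60 in CD45 cells. Without EpCAM replicate 1 the first was 11.11.

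The few counts of Rgs13 outside brush cells were uneven among libraries. Of the 24 counts in EpCAM cells 10 were in replicate 1, which also had the highest sum of brush markers (33.7 CPM), and 3 EpCAM libraries had none. Of the 60 in CD45 cells, 17 were in replicate 2 and 42 in replicate 3, where brush markers summed to 57.8 and 42.4 CPM (56.1 and 39.9 CPM of it Chat, leaving 1.74 and 2.52 CPM for the other 6), B cell markers to 1103 and 1587 CPM and mast cell markers to 126 and 323 CPM. CD45 replicates 1 and 4, with 0 and 1 counts of Rgs13, had 0 and 23.1 CPM of brush markers (0 and 3.56 CPM without Chat), 937 and 302 CPM of B cell markers and 960 and 809 CPM of mast cell markers. Replicate 1 held 371652 counts in total, the fewest of the 18 libraries, so a 0 there says little. The mean of Rgs13 in EpCAM cells was 0.0866% of its brush mean, and that in CD45 cells 0.182%. In EpCAM cells the brush markers had 0.998% (Pou2f3), 0.526% (Chat), 0.371% (Dclk1), 0.219% (Avil), 0.0475% (Gnat3), 0.0445% (the taste channel Trpm5) and 0% (Il25). In CD45 cells they had 11.9% (Chat), 0.0313% (Avil), 0.028% (Trpm5), 0.0189% (Gnat3), 0.0147% (Dclk1) and 0% (Pou2f3 and Il25). Which cells the counts of Rgs13 came from was not tested. In brush libraries 5 of the 6 mast cell markers had no count, the exception being Kit, a receptor kinase (102 to 195 CPM), and 4 of the 5 B cell markers had none.

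Rgs2, the regulator known for Gq, had a mean in brush cells close to that of Rgs13 (1206 ± 534 and 1249 ± 264 CPM, SD, n = 7) but was present in all 18 libraries. It had 748, 1043 and 2325 CPM in the lowest, median and highest brush library, against 22.9, 32.6 and 96.9 CPM in EpCAM libraries and 606, 206, 183 and 287 CPM in CD45 libraries. The brush libraries overlapped neither group, and EpCAM libraries were the lowest. The log2 fold change of brush cells was 4.92 ± 0.43 against EpCAM cells and 1.92 ± 0.46 against CD45 cells. The highest library of each group was the one that stood apart. Those libraries (brush 4, EpCAM 5, CD45 1) had ribosomal RNA shares of 63.5%, 12.2% and 43.4%, the highest, the lowest and the highest of their groups, and the part of library quality in the level of Rgs2 was not tested. Without the 3, the log2 fold change of brush cells was 5.09 against EpCAM cells and 2.21 against CD45 cells, and that of EpCAM against CD45 cells was -2.88.

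Rgs21, the taste cell RGS gene, was counted in every brush library and in none of the other 11. Its levels were 7.68, 20.5 and 42.4 CPM in the lowest, median and highest brush library, from 804 counts, against 0 counts in EpCAM and in CD45 cells. Against the floor of 3 counts over a group, brush cells were at least 275-fold higher than EpCAM cells and at least 158-fold higher than CD45 cells. Among brush libraries it varied more than Rgs13, with a coefficient of variation of 66.1%, against 21.1% for Rgs13 and 44.3% for Rgs2. CD45 replicate 3 holds much of the depth of its group, and without it the bound against CD45 cells was at least 75.1-fold.

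Rgs16, a small RGS protein induced in activated lymphocytes, was low throughout. It had 1.89, 10.6 and 20.1 CPM in the lowest, median and highest brush library, against 3 counts in all EpCAM libraries and 0, 1.99, 4.93 and 1.78 CPM in CD45 libraries. Brush and CD45 libraries overlapped: brush replicates 2, 4 and 5, at 4.05, 1.89 and 3.81 CPM, fell below CD45 replicate 3. The ratio to EpCAM cells was 124 (95% counting interval 42 to 603), and the log2 fold change against CD45 cells was 1.84 ± 0.66, or 2.56 without CD45 replicate 3, which held 45 of the 60 counts. EpCAM cells were lower than CD45 cells by a ratio of 34.9 (11.4 to 174), or 18.3 without CD45 replicate 3.

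The R7 genes Rgs6, Rgs7 and Rgs11 were likewise highest in brush cells, at levels well below Rgs13. Rgs11 had 17, 50.8 and 56.9 CPM in the lowest, median and highest brush library, against 4.04, 17.8 and 22.5 CPM in EpCAM libraries and 5.75, 1.25, 2.74 and 3.05 CPM in CD45 libraries. Brush replicate 4 fell among the EpCAM libraries and the other 6 brush libraries lay above them all. The log2 fold change of brush cells was 1.62 ± 0.37 against EpCAM cells and 4.08 ± 0.57 against CD45 cells, and that of EpCAM against CD45 cells, whose libraries overlapped, was 2.46 ± 0.54. Rgs11 overlaps Arhgdig on the opposite strand, and the strand setting of the counts is not given in the sources used here. Arhgdig was low, with 0.39 ± 0.474 CPM in brush, 0.859 ± 1.17 in EpCAM and 0.0274 ± 0.0548 in CD45 libraries (SD, n = 7, 7 and 4).

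Rgs7 had 135 counts in brush cells, 7 in EpCAM cells and 0 in CD45 cells. Its levels were 0.813, 5.07 and 9.43 CPM in the lowest, median and highest brush library, against 0, 0 and 1.23 CPM in EpCAM libraries. The lowest brush library fell below the highest EpCAM library, and the log2 fold change was 4.24 ± 0.81, or 5.21 without EpCAM replicate 5. Rgs6 had 104 counts in brush cells, none of them in replicate 4, against 6 in EpCAM cells, 4 of these in replicate 2, and 0 in CD45 cells. Its log2 fold change against EpCAM cells was 3.71 ± 0.81, or 4.77 without EpCAM replicate 2. Against CD45 cells Rgs7 was at least 26.5-fold and Rgs6 at least 20.4-fold higher, or at least 12.6-fold and 9.72-fold without CD45 replicate 3. Summed, the R7 genes Rgs6, Rgs7 and Rgs11 gave 51.7 ± 14.4 CPM in brush, 14.9 ± 6.84 in EpCAM and 3.19 ± 1.87 in CD45 libraries (SD, n = 7, 7 and 4), most of it Rgs11.

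Gnb5, the beta subunit that R7 proteins bind, was not among the 10 members and followed the same order. Like them, it was chosen with earlier results of these data known. It had 23.4, 33.9 and 44.1 CPM in the lowest, median and highest brush library, against 0.309, 12.4 and 16.7 CPM in EpCAM libraries and 0, 7.73, 3.72 and 9.65 CPM in CD45 libraries. Every brush library lay above every library of the other groups. It was higher in brush than in EpCAM cells (log2 fold change 1.56 ± 0.43, edgeR adjusted p = 0.00538) and than in CD45 cells (2.49 ± 0.57, adjusted p = 0.000965). EpCAM and CD45 libraries overlapped and were not called (0.93 ± 0.54, adjusted p = 0.189), but were without EpCAM replicate 5 (1.13, adjusted p = 0.0149), which held 1 count.

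Rgs22, a large RGS-domain protein known from testis, varied least among brush libraries by CPM, though not by TPM, where its coefficient of variation was 37.8% and that of Rgs2 19.1%. It had 56.6, 62 and 76.6 CPM in the lowest, median and highest brush library, a coefficient of variation of 10.4% by CPM, against 1.54, 4.81 and 8.65 CPM in EpCAM libraries. Of the CD45 libraries only replicate 3 held any, with 3 counts. The log2 fold change against EpCAM cells was 3.86 ± 0.35 and the ratio to CD45 cells was 390 (133 to 1893), or at least 186-fold without CD45 replicate 3. EpCAM cells were higher than CD45 cells by a ratio of 24.6 (8.24 to 121), or at least 11.7-fold without that library. The groups of brush and EpCAM libraries did not overlap.

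Rgs1, known from B cells and other lymphocytes, showed the reverse of Rgs13. It had 0, 0.203 and 1.89 CPM in the lowest, median and highest brush library, and 0 CPM in 6 EpCAM libraries with 2 counts in replicate 2, against 669, 476, 243 and 775 CPM in CD45 libraries. The CD45 libraries stood far above all others. The log2 fold change of brush against CD45 cells was -10.83 ± 0.63. EpCAM cells were lower than CD45 cells by a ratio of 6469 (1790 to 53430), or at least 3646-fold without EpCAM replicate 2. Brush and EpCAM cells held 8 and 2 counts, a ratio of 4.11 (0.82 to 39.7).

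Rgs18, known from platelets, had 0 counts in all 7 brush libraries and 2 counts in EpCAM cells, both in replicate 5, against 8.62, 27.9, 18.9 and 40.6 CPM in CD45 libraries. Brush cells were at least 254-fold lower than CD45 cells. EpCAM cells were lower than CD45 cells by a ratio of 391 (108 to 3239), or at least 233-fold without EpCAM replicate 5. The 5 platelet markers, of which Gp1bb had no count in CD45 cells, summed to 1356, 229, 164 and 748 CPM in the 4 CD45 libraries. The sum was highest in replicate 1, where Rgs18 was lowest. That level rests on 3 counts in a library of 371652, so the order of the 2 says little. Together Rgs1 and Rgs18 summed to 0 to 1.89 CPM in brush, 0 to 0.617 CPM in EpCAM and 262 to 816 CPM in CD45 libraries, where pan-leukocyte markers summed to the ranges given above.

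Genes next to each other on chromosome 1 thus differed in which population had their highest mean. In the GENCODE vM21 annotation of GRCm38, Rgs2 (chr1:143999338-144004161), Rgs13 (chr1:144138654-144177372), Rgs1 (chr1:144242296-144249242), Rgs21 (chr1:144516648-144567667) and Rgs18 (chr1:144752683-144775435) are consecutive protein-coding genes on the minus strand within 776 kb. The gaps between them are 134.5, 64.9, 267.4 and 185.0 kb. In that order, the population with the highest mean was brush for Rgs2, brush for Rgs13, CD45 for Rgs1, brush for Rgs21 and CD45 for Rgs18. Rgs13 and Rgs1, the closest pair, had 1249 ± 264 and 0.427 ± 0.676 CPM in brush libraries, 1.08 ± 1.47 and 0.0607 ± 0.161 CPM in EpCAM cells and 2.27 ± 2.48 and 541 ± 234 CPM in CD45 cells (SD, n = 7, 7 and 4).

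**Figure D2:**
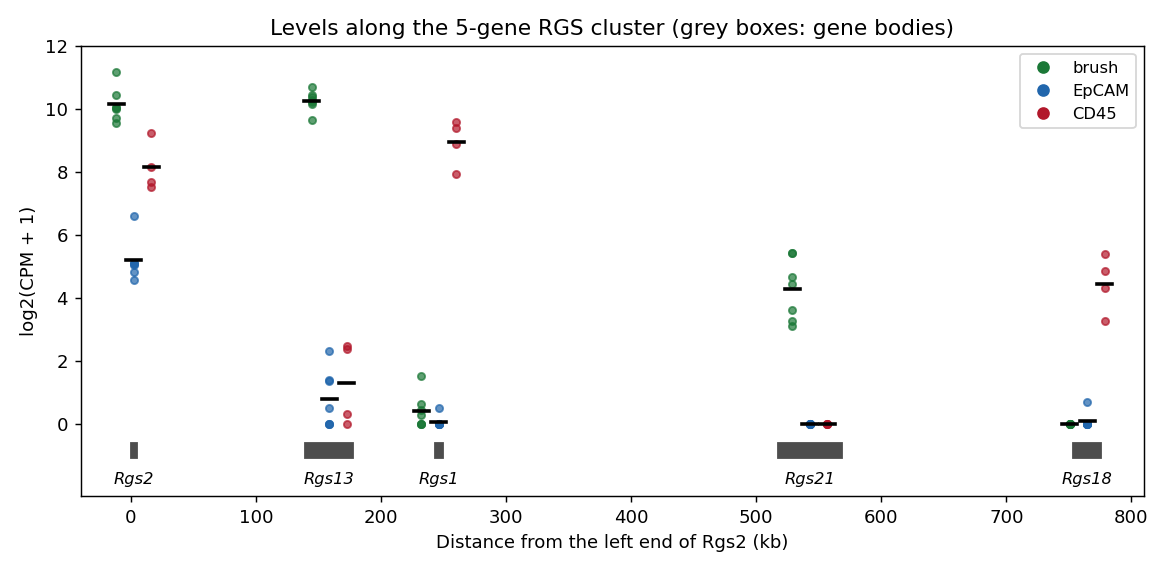
Levels, as log2(CPM + 1), of the 5 consecutive RGS genes against distance in kb from the left end of Rgs2; points are libraries, bars the mean of the plotted values of a group and grey boxes the gene bodies. The population with the highest mean changes from brush (Rgs2, Rgs13) to CD45 (Rgs1), back to brush (Rgs21) and to CD45 (Rgs18). Rgs2 also had 183 to 606 CPM in CD45 libraries.

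A second cluster, farther along chromosome 1, holds Rgs8, Rgs16 and Rgsl1 within 191 kb. Rgs8 lies 40.0 kb from Rgs16 and, like Rgs21, was counted in all 7 brush libraries (0.213 to 6.43 CPM, 93 counts) and in none of the EpCAM or CD45 libraries. It was at least 31.9-fold higher in brush than in EpCAM cells and at least 18.3-fold higher than in CD45 cells. Brush replicate 7 held 54 of the 93 counts, and the bounds were 18.7-fold and 10.7-fold without it, and 8.69-fold against CD45 cells without CD45 replicate 3. Rgsl1, an RGS-like gene, had 53 counts in brush cells, 1 in EpCAM cells and 1 in CD45 cells, a ratio of 54.5 (9.36 to 2192) and of 31.2 (5.36 to 1256). Without EpCAM replicate 7 the first was at least 15.9-fold. The second was 14.9 without CD45 replicate 3 and at least 8.05-fold without CD45 replicate 4. Rgs8 and Rgsl1 had too few counts for the fitted test, so no p is given.

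Compared per transcript length, RGS transcripts took a larger share of the transcripts in brush cells, most of it in Rgs13 and Rgs2, although 21 of the 22 RGS genes had some TPM there. The summed level of all 22 RGS genes was 2367 ± 312 TPM (a length-scaled share of all transcripts) in brush libraries, 113 ± 20.1 TPM in EpCAM libraries and 998 ± 230 TPM in CD45 libraries (SD, n = 7, 7 and 4). Rgs13 and Rgs2 together made up 92.9% of it in brush libraries (86.8 to 97.7%), 22% in EpCAM libraries (15.7 to 42.4%) and 20.1% in CD45 libraries (13.6 to 35.4%). Rgs1 and Rgs18 made up 0.00794%, 0.0822% and 42.7% (31.3 to 51.5% in CD45 libraries). The 10 members together were 96.8% of RGS TPM in brush, 33.3% in EpCAM and 63.3% in CD45 libraries. Since the 10 were chosen on their levels in these libraries, those last shares describe the choice.

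The order of levels within each population also differed. In brush cells Rgs13 had 1112 ± 381 TPM and Rgs2 1085 ± 207 TPM, not separated by their ranges: Rgs13 was above Rgs2 in 5 of the 7 libraries and below it in replicates 4 and 5. All other RGS genes were far lower, with Rgs11 next at 42.3 ± 22.1 TPM, then Rgs19 at 24.6 ± 9.77 TPM, their ranges overlapping. Rgs14 had 17.4 ± 10.1 TPM, Rgs22 17.3 ± 6.55, Rgs12 17.2 ± 11.4 and Rgs21 17 ± 16 TPM. Rgs3 followed with 11.6 ± 6.28 TPM, then Rgs7 with 8.91 ± 11.1, Rgs16 with 5.93 ± 5.35 and Rgs6 with 2.15 ± 1.34 TPM. From Rgs14 to Rgs6 each overlapped its neighbours in that order. In EpCAM cells no member led: Rgs12 (26.1 ± 6.17 TPM), Rgs10 (23.5 ± 11.5 TPM) and Rgs2 (23.2 ± 8.02 TPM) overlapped. In CD45 cells Rgs1 had 423 ± 170 TPM, Rgs10 255 ± 71.5 TPM and Rgs2 197 ± 107 TPM, each overlapping the next, and Rgs18 had 10.5 ± 6.29 TPM.

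**Figure D3:**
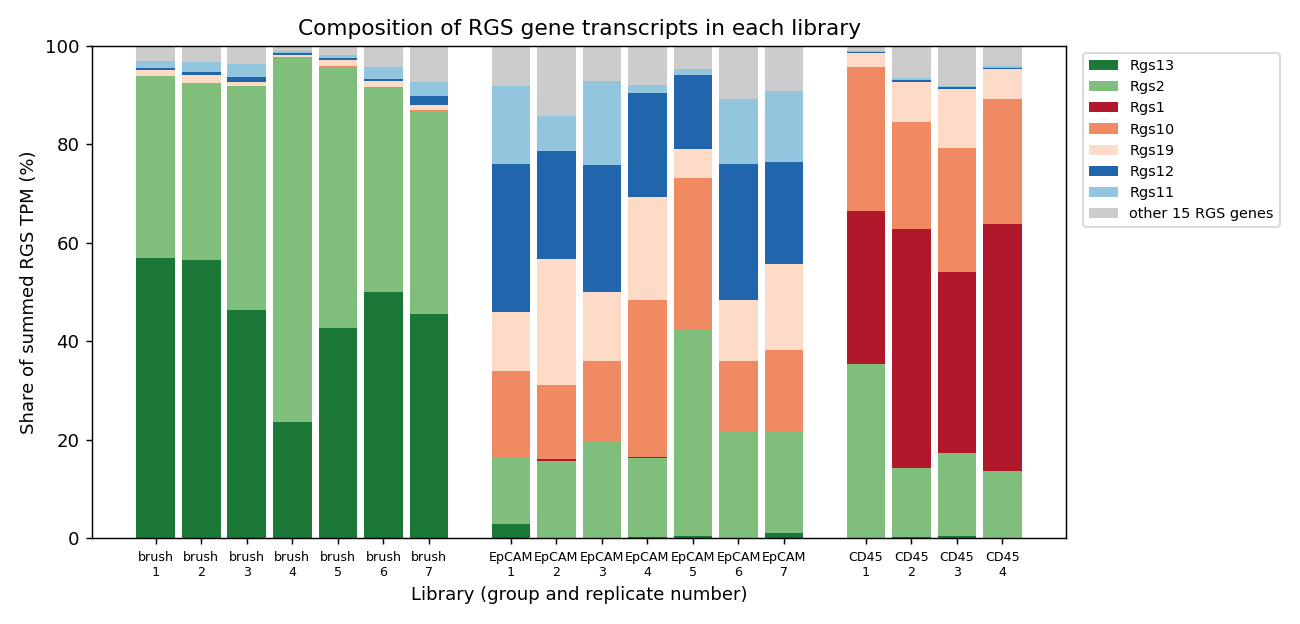
Share (%) of the summed TPM of all 22 RGS genes taken by single RGS genes, 1 bar for each of 7 brush, 7 EpCAM and 4 CD45 libraries. Rgs13 and Rgs2 fill 86.8 to 97.7% of each brush bar, and Rgs1 fills 31.1 to 50.3% of each CD45 bar.

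The other 12 RGS genes of the table moved in both directions. Only 6 had enough counts for the test. In brush cells 1 was higher and 3 were lower than in EpCAM cells (median log2 fold change -0.32, against -0.06 over all genes tested). Against CD45 cells 1 was higher and 2 were lower (-1.13, against 0.05). Of all genes tested, 18.3% were called higher and 22% lower against EpCAM cells, and 23.4% and 22.4% against CD45 cells. Rgs10, a small RGS gene of macrophages, microglia and platelets, fell furthest, with 0 to 2.18 CPM in brush libraries, against 11 to 48.1 CPM in EpCAM and 120 to 399 CPM in CD45 libraries. The groups did not overlap, with log2 fold changes of -4.38 ± 0.49 against EpCAM cells (edgeR adjusted p = 1.59e-07) and -7.93 ± 0.55 against CD45 cells (adjusted p = 9.13e-11).

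Rgs14 and Rgs12, whose proteins carry a motif that also binds inactive G alpha subunits, went opposite ways. Rgs14 was higher in brush cells, at 29 ± 12.8 CPM, than in EpCAM cells, at 0.501 ± 0.802 CPM (log2 fold change 6.25 ± 0.68, edgeR adjusted p = 1.14e-07), or 7.10 without EpCAM replicate 1. Brush replicate 4, at 1.89 CPM, fell below the highest EpCAM library, at 2 CPM. CD45 libraries held 70.8 ± 28.1 CPM of Rgs14, and brush against CD45 cells did not pass the threshold (-1.28 ± 0.53, edgeR adjusted p = 0.055, or 0.00829 to 0.145 over the alternatives). It passed without EpCAM replicate 1 (adjusted p = 0.0359), EpCAM replicate 5 (0.0273) or CD45 replicate 1 (0.0286), without the 3 libraries that stood apart, with limma (0.0225) and with only those groups fitted (0.0134). Rgs12 was lower in brush cells, at 51.9 ± 18.4 CPM, than in EpCAM cells, at 84.4 ± 12.4 CPM (-0.69 ± 0.25, adjusted p = 0.0273). That call was lost under 4 alternatives (adjusted p = 0.00537 to 0.0645 over all), namely without the filter on low counts and without brush replicate 1, brush replicate 6 or EpCAM replicate 3. Against CD45 cells (6.36 ± 1.99 CPM) Rgs12 was higher (3.02 ± 0.35, adjusted p = 1.97e-07).

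The remaining tested RGS genes were Rgs19, Rgs17 and Rgs3. Rgs19, known for acting on the Gi class, had 21.6 ± 7.81 CPM in brush libraries, close to the 20.9 ± 7.01 CPM of EpCAM libraries (log2 change 0.05 ± 0.30, edgeR adjusted p = 0.924), and was lower than in CD45 cells (88 ± 38.8 CPM; -2.05 ± 0.34, adjusted p = 2.55e-05). Rgs17, of the same subfamily, was lower in brush than in EpCAM cells, from 5 and 99 counts (-3.63 ± 0.94, edgeR adjusted p = 0.00347). Brush replicate 5 held 4 of the 5, and without it the value was -5.54 (adjusted p = 7.11e-05). Rgs3 passed no edgeR test, with 3.5 ± 1.54 CPM in brush, 2.61 ± 0.799 in EpCAM and 5.14 ± 1.87 in CD45 cells (SD, n = 7, 7 and 4). EpCAM against CD45 cells gave -1.05 (edgeR adjusted p = 0.068) and passed with limma (-1.06, adjusted p = 0.0396). By TPM the mean of Rgs3 was highest in brush cells, at 11.6 ± 6.28, against 8.49 ± 4.69 in CD45 cells. Rgs9, the R7 gene of photoreceptors, had 34 counts in brush, 12 in EpCAM and 30 in CD45 cells. Rgs4, Rgs5 and Rgs20 had 1 to 42 counts in each population that held any.

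**Figure D4:**
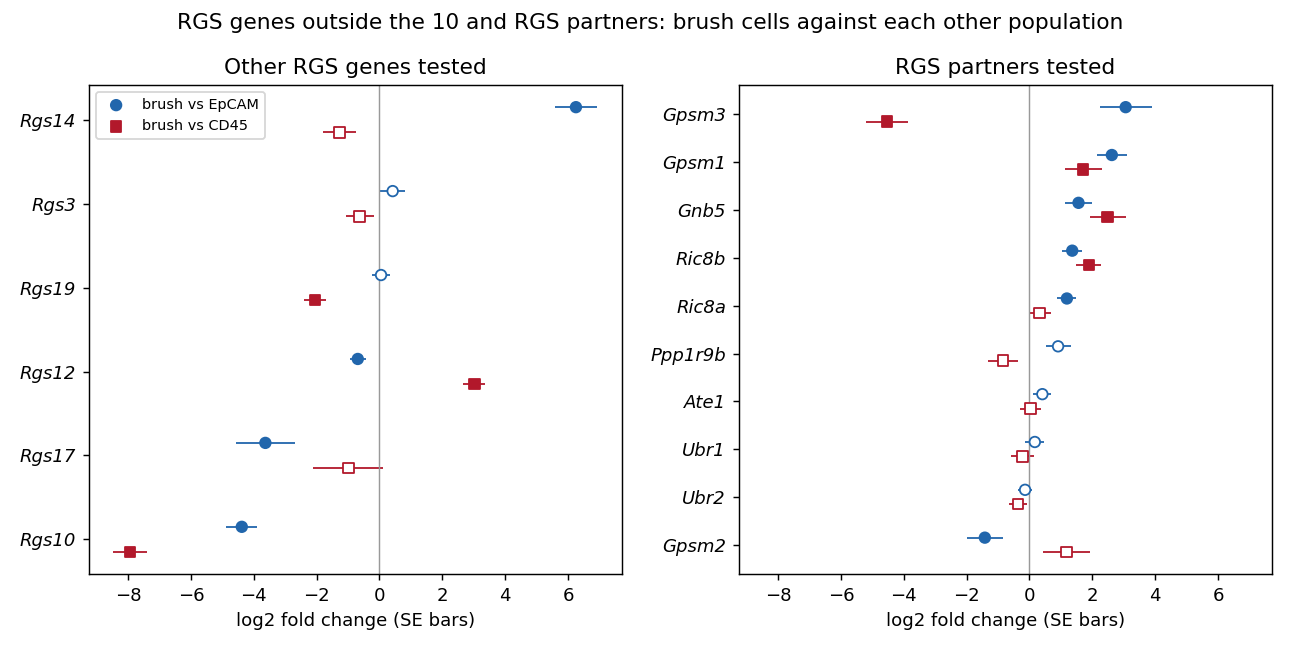
Log2 fold changes (points, with SE bars) of brush against EpCAM cells (circles) and against CD45 cells (squares) for the 6 tested RGS genes outside the 10 and the 10 tested RGS partners; filled points passed edgeR's adjusted p below 0.05. Rgs10 is lower in brush cells in both comparisons, and Gnb5, Gpsm1 and Ric8b are higher in both.

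Proteins that bind, chaperone or degrade RGS proteins or share their G alpha targets formed a list of 14, of which 10 were tested. In brush cells 5 were higher and 1 lower than in EpCAM cells (median log2 fold change 1.05, against -0.06 over all genes), and 3 were higher and 1 lower than in CD45 cells (0.18, against 0.05). Over all genes tested 18.3% were called higher and 22% lower against EpCAM cells, and 23.4% and 22.4% against CD45 cells. Besides Gnb5, the G alpha chaperone Ric8b was higher in both, with 54 CPM in brush, 21.2 in EpCAM and 15 CPM in CD45 cells (log2 fold changes 1.36 ± 0.31, edgeR adjusted p = 0.00103, and 1.89 ± 0.40, adjusted p = 0.000436). Gpsm1, which binds inactive Gi subunits, was higher by 2.62 ± 0.48 than in EpCAM cells (adjusted p = 0.000102) and by 1.71 ± 0.59 than in CD45 cells (adjusted p = 0.0214, or 0.00205 to 0.0746 over the alternatives, with the call lost without CD45 replicate 2, 3 or 4). The chaperone Ric8a was higher than in EpCAM cells (1.19 ± 0.30, adjusted p = 0.00265) and had 0.32 ± 0.35 against CD45 cells (adjusted p = 0.491).

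Gpsm2 and Gpsm3, which also bind inactive Gi subunits, differed from Gpsm1. Gpsm3 had 0.884 CPM in brush, 0.0826 in EpCAM and 20.6 CPM in CD45 cells, higher than in EpCAM cells by a ratio of 11.8 (2.92 to 103) and lower than in CD45 cells (log2 fold change -4.53 ± 0.66, edgeR adjusted p = 4.87e-06), or -3.78 without CD45 replicate 1. Gpsm2 was lower in brush than in EpCAM cells at the edge of the threshold (-1.42 ± 0.57, adjusted p = 0.0492), a call lost under 17 alternatives (adjusted p = 0.0123 to 0.14 over all), among them leaving out any brush library, EpCAM replicate 1, 2, 3, 6 or 7, or CD45 replicate 2. Ate1, Ubr1 and Ubr2, enzymes of the pathway that degrades some small RGS proteins by their N terminus, had log2 fold changes of 0.41 ± 0.29, 0.17 ± 0.30 and -0.14 ± 0.23 against EpCAM cells and passed the test in neither comparison of brush cells, nor did Ppp1r9b, a scaffold that binds RGS proteins (0.91 ± 0.40 against EpCAM cells, edgeR adjusted p = 0.0731). Ate1 passed against EpCAM cells without the 3 libraries that stood apart (0.58, adjusted p = 0.0289). Rgs7bp, Rgs9bp, Gpr158 and Gpr179, membrane anchors of R7 proteins, had too few counts to test. Rgs7bp did not follow the order of the R7 genes, with 0, 2.74, 0.548 and 6.86 CPM in the CD45 libraries. Its only other counts were 3 in brush replicate 6 and 4 in EpCAM replicate 5. Rgs9bp had 2 counts in brush replicate 1 and 4 in brush replicate 7.

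The G alpha subunits, the targets of RGS proteins, were mixed. Of 12 tested, 4 were higher and 3 lower in brush than in EpCAM cells (median log2 fold change 0.03) and 5 were higher and 3 lower than in CD45 cells (0.42). Over all genes 18.3% were higher and 22% lower against EpCAM cells, and 23.4% and 22.4% against CD45 cells. Gnat3, the taste subunit gustducin, had mean levels of 3346 CPM in brush, 1.59 in EpCAM and 0.633 CPM in CD45 cells, and Gna15 had 0.946, 37.6 and 53.7 CPM. Gnai1, of the Gi class, had 26.5 CPM in brush, 18.2 in EpCAM and 0 CPM in CD45 cells. Of 13 tested genes for other proteins with an RGS homology domain, 6 were higher and 0 lower in brush than in EpCAM cells, led by the receptor kinases Grk6 (log2 fold change 2.87 ± 0.34, edgeR adjusted p = 3.43e-07) and Grk5 (1.77 ± 0.51, adjusted p = 0.00737). Against CD45 cells 1 was higher and 2 were lower (median -0.09), the 2 being Grk2 (-1.69 ± 0.32, edgeR adjusted p = 0.000112) and Grk5 (-1.40 ± 0.53, adjusted p = 0.0345, lost under 9 alternatives, among them leaving out brush replicate 1, 2, 3 or 7 or CD45 replicate 2 or 4). That count of 6 was 3 without brush replicate 2, EpCAM replicate 1 or EpCAM replicate 4, and the G alpha count of 7 called was 4 without EpCAM replicate 1. The 4 higher G alpha subunits were 2 without brush replicate 1, 3, 4 or 5, without EpCAM replicate 1, 2 or 3, and without the filter on low counts.

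Across the 18 libraries, the genes with the pattern most like each member were ranked by Pearson's r of log2(CPM + 1), which here mostly tracks the 3 populations. Among the nearest to Rgs13 were Sh2d6 (0.991) and Trpm5 (0.987), and the nearest to Rgs21 was Calhm1 (0.988), a channel gene of taste cells with 39.7 CPM in brush cells and 0 in EpCAM and in CD45 cells. The nearest to Rgs2 was Ltc4s (0.978), the leukotriene C4 synthase, which had 441, 0.724 and 39.3 CPM in brush, EpCAM and CD45 cells. Rgs22 was nearest to Kndc1 (0.988) and the transcription factor Sox9 (0.986), Rgs6 to the bitter receptor Tas2r137 (0.956), Rgs7 to Frmd5 (0.955), Rgs11 to Ildr1 (0.952) and Rgs16 to Mfsd7c (0.948). Rgs1 was nearest to Gm21188 and Bcl2a1d (0.995 each) and Lilr4b (0.994), and Rgs18 to Fcgr2b, Cd209a and Ccl22 (0.996 each), the last with 104 CPM in CD45 cells and 0 elsewhere. Between members, Rgs13 and Rgs21 had an r of 0.948 and Rgs1 and Rgs18 of 0.969, while Rgs13 and its neighbour Rgs1 had -0.352.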

How the data were processed

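RNA of 18 libraries (7 brush, 7 EpCAM, 4 CD45) was measured by RNA-seq. The authors deposited unnormalized whole-number read counts per gene symbol and, per library, RSEM expected counts and TPM values for 47729 gene identifiers. The submitters' processing notes name mm10, RSEM 1.2.21, STAR 2.4.2a, featureCounts, Picard and DESeq2. Their roles and the use of strand in counting are not stated in what was used here. A deposited normalized table was not used.

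From the counts, CPM were computed on TMM-scaled library sizes, and edgeR 4.0.16 (R 4.3.3) fitted a quasi-likelihood model to all 18 libraries with group as the only term, after filterByExpr. This left 13418 genes, with p-values adjusted by Benjamini and Hochberg over them all and a threshold of 0.05. Adjusted p-values are not given for the 10 genes. The SE of a log2 fold change came from its F statistic. Where a group had 0 counts, the fold is a bound against a floor of 3 counts over the group; with 1 to 3 counts it is a ratio of pooled counts with an exact 95% binomial interval. Bounds and intervals cover counting error only. TPM served to compare genes with each other, to sum RGS genes per library and to check which population was highest, with no test. DESeq2 1.42.0 and limma 3.58.1 were alternatives, and the code was tested on simulated data.

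The genes, lists and tests were chosen with earlier results of these data known. All members were named; other genes were named by list, by size of change, by likeness to a member or by position. Libraries of a group differed by more than sampling noise (lowest chi-square per degree of freedom 6.11), so none was taken for a copy. Some genes near or like the members are not reported here.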

Additional observations from a re-analysis of the deposited data

Results flagged for a closer look

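In 7 of the 25 sets formed by 1 of the 10 genes in 1 group of libraries with any count, a single library lay far from the others (Dixon's test, 95% level); chance alone gives about 1 in 20, a rate that does not hold where all the other libraries are at 0, as in 3 of the 7 (Rgs1 and Rgs18 in EpCAM cells, Rgs22 in CD45 cells). For Rgs2, brush replicate 4 had 2325 CPM where the other brush libraries had 748 to 1396, and EpCAM replicate 5 had 96.9 CPM where the others had 22.9 to 33.8. For Rgs13, EpCAM replicate 1 had 4.01 CPM from 10 counts where the others had 0 to 1.62. The remaining values rest on 1 to 3 counts: Rgs1 had 1.89 CPM in brush replicate 4 and 0.425 CPM in EpCAM replicate 2, Rgs18 had 0.617 CPM in EpCAM replicate 5, and Rgs22 had 0.329 CPM in CD45 replicate 3.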

How the results depend on the processing

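Of 396 recomputed log2 fold changes of the 10 genes, 395 moved by less than the spread between libraries, none changed sign after being called, and 1 moved by more: Rgs6 in brush against EpCAM cells was 4.77 without EpCAM replicate 2. Of 174 recomputed ratios and bounds 12 moved by over 1.5 times, 8 of them on leaving out CD45 replicate 3 and 2 on leaving out EpCAM replicate 2. Called genes numbered 4319 to 6244 for brush and EpCAM cells, 5054 to 7286 for brush and CD45 cells and 4495 to 6565 for EpCAM and CD45 cells over the alternatives that kept all libraries or left out the 3 that stood apart. The count of other RGS genes called was 2 in brush against EpCAM cells with only those groups fitted and 5 in brush against CD45 cells with no filter, which tests more. Without the filter 3 RGS homology genes were called in brush against EpCAM cells. Leaving out 1 library in turn gave 4 to 8 G alpha subunits and 3 to 6 RGS homology genes there. Some changes that did not pass turned sign, and none passed where its sign was turned: Rgs19 was -0.07 to 0.18 and Ubr2 -0.29 to -0.05 (0.00 without the 3 libraries that stood apart) in brush against EpCAM cells. In brush against CD45 cells Rgs3 was 0.04 and Ate1 -0.02 with RSEM counts, and leaving out 1 library gave -2.91 (adjusted p = 0.0358 in edgeR, without brush replicate 5) to 0.90 (without CD45 replicate 3) for Rgs17, where all libraries gave -0.99, -0.17 to 0.38 for Ate1 (-0.00 without brush replicate 7, -0.05 without CD45 replicate 2) and -0.45 to 0.16 for Ubr1. In EpCAM against CD45 cells Ubr1 was -0.62 to 0.01. The cause was not tested. Upper-quartile scaling put the median log2 fold change of all genes at 0.20 in EpCAM against CD45 cells, where TMM gave 0.08, and at 0.15 in brush against CD45 cells, where TMM gave 0.05. With the replicate number as a replicate block, 5035, 5566 and 4781 genes were called for brush and EpCAM cells, for brush and CD45 cells and for EpCAM and CD45 cells, where 5411, 6146 and 5438 were called without it. The block also made the Rgs14 call in brush against CD45 cells (-1.80, edgeR adjusted p = 0.0368) and ended that of Gpsm1 (1.29, adjusted p = 0.0739). Whether the numbers pair the libraries cannot be told. Of 15 same-number pairs 5 had a correlation of deviations above 0.1 (-0.177 to 0.231), and pairs of different number were not computed for comparison. The bounds of Rgs8 and Rgsl1 without 1 library were computed after seeing the data. Depth limits Rgs6, Rgs7, Rgs8, Rgs16, Rgs18 and Rgsl1, with at most 448 counts in the population that holds them.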
